A study of Mus musculus with 2 samples.

Results

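The T and B lymphocyte genes described here are 9 genes chosen by symbol: Cd3d, Cd3e and Cd3g, Cd4, Cd8a, Nkg7, Cd79a, Cd79b and Ms4a1. All 9 were among the 19465 genes listed in both libraries. They were measured in liver sections by Visium, in which pairs of probes for each gene are hybridised to RNA in fixed, paraffin-embedded tissue and each captured molecule is counted once, as a unique molecular identifier (UMI), in a spot of the slide. A spot covers a small piece of tissue, and its RNA can come from more than 1 cell and cell type. One library came from a mouse whose floxed AEG-1 gene (also called Mtdh) was deleted in myeloid cells by a LysM/Cre (Lyz2) driver (AEG-1DMAC), and 1 from a floxed mouse (AEG-1fl/fl), both on a C57BL/6/J background and 27 weeks old. LysM/Cre acts in macrophages, monocytes and neutrophils, not as a rule in lymphocytes. By their labels both mice ate a high fat/high sugar diet (HF/HSD) that began at 7 weeks of age and lasted 20 weeks. The study's methods place this assay in littermates on control diet, so the diet of these sections is not settled. With 1 section and 1 library per genotype there is no replicate and no test. All intervals are 95% intervals for counting error only, and a difference between the libraries cannot be told apart from a difference between 2 mice or 2 sections.

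T cells recognise antigen through a receptor whose signal is carried by the CD3 chains, and the coreceptors CD4 and CD8 divide helper from cytotoxic T cells. B cells signal through the paired chains CD79a and CD79b beside a surface immunoglobulin, and carry the membrane protein CD20, the product of Ms4a1. In the liver, lymphocytes lie along the sinusoids and gather in the connective tissue around portal veins and bile ducts.

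The AEG-1DMAC library held more RNA of the T cell receptor genes and less of the B cell genes than the AEG-1fl/fl library. The 3 Cd3 genes together (the T set) had 458 UMIs in AEG-1DMAC and 249 in AEG-1fl/fl, which is 10.1 and 4.95 CPM, the UMIs of a gene scaled by the total of its library. Cd79a, Cd79b and Ms4a1 together (the B set) had 326 and 778 UMIs, or 7.17 and 15.5 CPM. The T set was thus 2.04-fold higher in AEG-1DMAC (log2 1.03, interval 0.80 to 1.25), and the B set was 2.16-fold higher in AEG-1fl/fl (log2 -1.11, interval -1.30 to -0.92). In such mixed tissue, fewer cells of a type and less RNA per cell cannot be told apart.

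The libraries were of similar size. After the study's limits on spots, AEG-1DMAC kept 45453286 UMIs in 2140 spots and AEG-1fl/fl kept 50322850 UMIs in 2540 spots, with medians of 20929.5 and 18285 UMIs per spot. One UMI was worth 0.0220 and 0.0199 CPM. Albumin took 8.80% and 14.2% of all UMIs, and the 4 hepatocyte markers summed to a level 0.56 lower on the log2 scale in AEG-1DMAC (log2 -0.56). The 2 files share 1782 spot barcodes, which are positions used on both capture areas and not shared cells.

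Cd3d, Cd3e and Cd3g encode the delta, epsilon and gamma chains of CD3. They lie close together on chromosome 9 of GRCm38, at chr9:44981786-44987339 (+) for Cd3d, chr9:44998740-45009627 (-) for Cd3e and chr9:44969572-44980431 (-) for Cd3g. The starts of Cd3d and Cd3g were 1355 bases apart and point away from each other. The promoters of these genes, and that of Cd79a on chromosome 7 (chr7:24897381-24902197, +), are shown because the 3 Cd3 genes moved together between the libraries while Cd79a moved the other way. Each window runs from 250 bases before to 50 after the start of the gene in RefSeq (GRCm38.p6), 5′ to 3′ on the strand of the gene, and capitals mark every E-box (CANNTG). The windows are chr9:44981536-44981835 (+) for Cd3d, chr9:45009562-45009861 (-) for Cd3e, chr9:44980382-44980681 (-) for Cd3g and chr7:24897247-24897546 (+) for Cd79a.
Cd3d: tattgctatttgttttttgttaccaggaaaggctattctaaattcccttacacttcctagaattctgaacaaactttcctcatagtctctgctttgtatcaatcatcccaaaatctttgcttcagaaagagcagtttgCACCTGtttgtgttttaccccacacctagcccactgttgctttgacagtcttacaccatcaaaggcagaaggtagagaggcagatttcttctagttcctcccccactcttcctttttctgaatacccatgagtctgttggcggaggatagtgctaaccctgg
Cd3e: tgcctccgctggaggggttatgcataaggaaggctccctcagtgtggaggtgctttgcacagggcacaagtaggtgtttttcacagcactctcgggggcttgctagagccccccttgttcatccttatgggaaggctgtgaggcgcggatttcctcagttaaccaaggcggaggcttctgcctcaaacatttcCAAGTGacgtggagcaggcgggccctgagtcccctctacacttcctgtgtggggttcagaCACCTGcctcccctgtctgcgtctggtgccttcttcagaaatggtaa
Cd3g: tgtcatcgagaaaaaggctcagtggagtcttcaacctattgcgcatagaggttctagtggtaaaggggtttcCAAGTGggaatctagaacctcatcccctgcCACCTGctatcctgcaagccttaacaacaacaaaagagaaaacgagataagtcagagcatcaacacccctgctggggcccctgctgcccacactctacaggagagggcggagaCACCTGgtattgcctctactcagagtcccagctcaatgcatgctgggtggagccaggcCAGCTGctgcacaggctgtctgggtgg
Cd79a: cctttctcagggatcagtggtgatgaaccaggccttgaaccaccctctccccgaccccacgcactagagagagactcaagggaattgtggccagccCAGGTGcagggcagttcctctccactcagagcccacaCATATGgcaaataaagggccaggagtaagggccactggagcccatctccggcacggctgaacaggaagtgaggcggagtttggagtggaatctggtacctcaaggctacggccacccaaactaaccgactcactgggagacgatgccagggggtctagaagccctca

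Promoters were matched for 6 of the 9 genes (the 4 shown, Cd8a and Nkg7). E-boxes were found 1 time in Cd3d, 2 times in Cd3e, 4 times in Cd3g and 2 times in Cd79a, but 72.3% of 32851 promoters of this length hold at least 1. On either strand, the Runx motif TGTGGT (in 16.8% of all promoters) was found in the window of Nkg7 only among the 6. The octamer ATGCAAAT (1.74%), the motif CCCNNGGG (13.7%) and TATAAA (13.6%) were found in none of the 6 windows. A match is a description of the letters, not of a bound site.

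Each Cd3 gene gave nearly the same numbers. Cd3d had 150 UMIs in AEG-1DMAC and 76 in AEG-1fl/fl (log2 1.13, interval 0.72 to 1.55). Cd3e had 156 and 88 UMIs (log2 0.97, interval 0.59 to 1.37). Cd3g had 152 and 85 UMIs (log2 0.99, interval 0.59 to 1.39). All 3 intervals lay above 0 and overlapped one another.

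Cd4, the coreceptor of helper T cells at chr6:124864692-124888221 (-), moved the same way, with 75 UMIs in AEG-1DMAC and 37 in AEG-1fl/fl (log2 1.17, interval 0.58 to 1.78). Cd8a, the coreceptor chain of cytotoxic T cells at chr6:71373427-71379173 (+), was the T cell member that was not higher in AEG-1DMAC, with 11 and 15 UMIs (log2 -0.30, interval -1.57 to 0.92). Nkg7, a granule membrane protein of cytotoxic T cells and natural killer (NK) cells at chr7:43437073-43438249 (+), had 25 and 12 UMIs (log2 1.21, interval 0.16 to 2.33). Counts this low are close to those of genes without a known source in the liver. A list of 20 genes of sperm, retina, brain and other tissues was taken as not expected in the liver. Of these, 11 had no UMI in AEG-1DMAC and 12 none in AEG-1fl/fl, but Dct had 19 and 12, and Gnat1 278 and 414. Gfap, with 18 and 26, is on the list too, but stellate cells of the liver can make it, so it gives no background level. Cd8a and Nkg7 lie near Dct. Gnat1 lies above every member in both libraries, the Cd3 genes, Cd4 and the B cell genes included. A level alone therefore does not show, for any member, that the gene's own RNA was captured.

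Among the B cell genes, Cd79a had 120 UMIs in AEG-1DMAC and 266 in AEG-1fl/fl (log2 -1.002, interval -1.32 to -0.69). Cd79b, at chr11:106311341-106314762 (-), had 147 and 351 UMIs (log2 -1.11, interval -1.40 to -0.83). Ms4a1, at chr19:11249675-11266241 (-), had 59 and 161 UMIs (log2 -1.30, interval -1.76 to -0.86). All 3 were lower in AEG-1DMAC, again by similar amounts. Probes differ in how well they capture their RNA, so the numbers of one gene are not set against those of another.

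**Figure D1:**
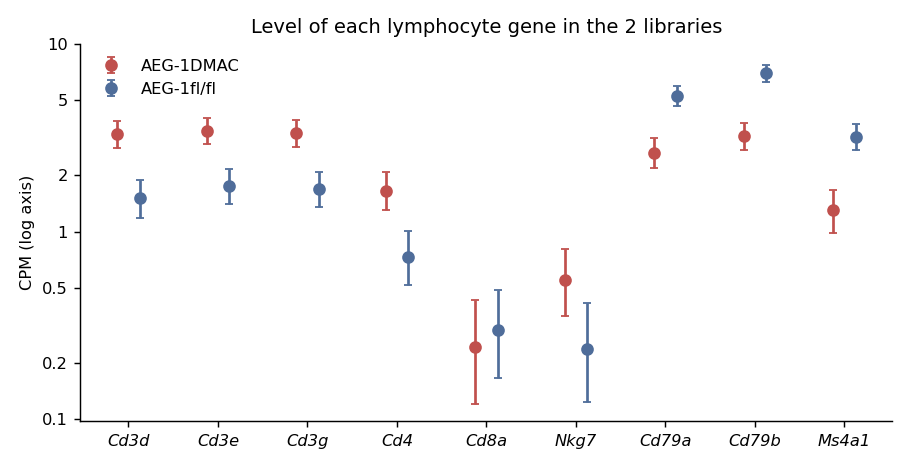
Level of each of the 9 genes in CPM, on a log axis, in the AEG-1DMAC (red) and AEG-1fl/fl (blue) libraries, 1 library each, with exact Poisson 95% intervals. The 3 Cd3 genes and Cd4 lie higher in red, the 3 B cell genes lie higher in blue, and the bars of Cd8a overlap.

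Counted at a ratio of at least 2-fold, 3 of the 9 genes were higher in AEG-1DMAC (Cd3d, Cd4 and, on few UMIs, Nkg7) and 3 were lower (Cd79a, Cd79b and Ms4a1). Of the 12779 genes with at least 20 UMIs over both libraries, 2.96% passed this line as higher and 2.82% passed it as lower. The median log2 ratio of those genes was 0.12, so the libraries as a whole were shifted far less than either set. Cd3e and Cd3g fell just under the 2-fold line, with folds of 1.96 and 1.98.

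The share of spots with a UMI followed the levels. At least 1 T set UMI was found in 357 of the AEG-1DMAC spots (16.7%, interval 15.1 to 18.3) and in 215 of the AEG-1fl/fl spots (8.46%, interval 7.41 to 9.61). At least 1 B set UMI was found in 272 (12.7%, interval 11.3 to 14.2) and in 602 (23.7%, interval 22.1 to 25.4). These shares depend on depth. With every spot thinned to 10000 UMIs, which left out 26 and 106 shallower spots, the expected shares were 8.96% and 4.65% for the T set and 6.82% and 13.7% for the B set. The order of the libraries was unchanged by thinning for both sets. Single members were in few spots, from 0.514% for Cd8a to 6.64% for Cd3g in AEG-1DMAC, and from 0.472% for Nkg7 to 12.5% for Cd79b in AEG-1fl/fl.

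The ratio of T set to B set UMIs put both shifts in 1 number that does not depend on the total of a library. It was 1.40 in AEG-1DMAC (interval 1.22 to 1.62) and 0.320 in AEG-1fl/fl (interval 0.276 to 0.370), a 4.39-fold difference (interval 3.57 to 5.40). As probes differ, neither value is a ratio of cells. Over the 12 pairs of a Cd3 gene or Cd4 with a B cell member, the log2 ratio of ratios ran from 1.97 to 2.47, and it lay above 0 with its interval in all 12. Each pair restates the values of its genes given above, so the pairs are no separate support. The 3 pairs with Nkg7 also lay above 0 and the intervals of the 3 pairs with Cd8a included 0, both on few UMIs.

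The same ratio was computed in each part of the tissue. Spots were ranked within a library by an index of zone 3 markers, which lie near central veins (Cyp2e1, Cyp1a2, Oat), less zone 1 markers, which lie near portal tracts (Pck1, Hal, Gls2, Cyp2f2, Hsd17b13, Arg1), and divided in 3 equal parts. The log2 ratio of ratios was 2.60 (interval 2.06 to 3.15) in the zone 1 part, 1.92 (interval 1.42 to 2.43) in the middle part and 1.93 (interval 1.40 to 2.45) in the zone 3 part. The T set was higher in AEG-1DMAC in all 3 parts, by log2 1.12, 1.004 and 0.96. The B set was lower in all 3, by log2 -1.49, -0.92 and -0.97. The difference between the libraries was therefore spread along the lobule, and the intervals of the 3 parts overlapped.

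The other genes of the 2 lineages were counted from lists. Of 28 other T cell genes, 21 had at least 20 UMIs, and 20 of these were higher in AEG-1DMAC and 1 was lower, with a median log2 ratio of 0.84 beside 0.12 for all genes. At 2-fold, 6 were higher and 0 lower, where the shares of all genes were 2.96% and 2.82%. Those with most UMIs were Thy1, a surface protein that stromal cells also carry, with 251 and 154 UMIs (log2 0.85), the receptor constant regions Trbc2 with 207 and 104 (log2 1.14), Trac with 183 and 100 (log2 1.02) and Trbc1 with 132 and 95 (log2 0.62), and the kinase Lck with 119 and 64 (log2 1.04). Trbc1 and Trbc2 are nearly identical, so UMIs of one may come from the other. Trac and Trbc2, which encode the antigen-binding receptor itself, differed by about as much as the Cd3 genes.

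Of 19 other B cell genes, all with at least 20 UMIs, 17 were lower in AEG-1DMAC and 2 were higher, with a median log2 ratio of -0.60. At 2-fold, 5 were lower and 0 higher, where the shares of all genes were 2.82% and 2.96%. Named after their values were seen, the 5 were Fcer2a, Pax5, Cr2, Spib and Pou2af1. Fcer2a, the low-affinity IgE receptor CD23, had 17 and 61 UMIs (log2 -1.70). Pax5, the transcription factor that fixes B cell identity, had 21 and 60 (log2 -1.37). Cr2, the complement receptor CD21, had 22 and 56 (log2 -1.20). The transcription regulators Spib and Pou2af1 had 26 and 66 (log2 -1.20) and 43 and 102 (log2 -1.10). Of the 5 with most UMIs, the immunoglobulin genes Igkc, Ighm and Ighd were lower, with 652 and 1091 (log2 -0.60), 485 and 867 (log2 -0.69), and 161 and 346 UMIs (log2 -0.96). Cd37, a membrane protein of many leukocytes, differed little, with 429 and 522 UMIs (log2 -0.14). Cd72, a coreceptor of B cells, went the other way with 281 and 217 UMIs (log2 0.52). Set against each other, the 2 longer lists gave a ratio of ratios of log2 1.27 (interval 1.14 to 1.40), in the same direction as the 6 members and smaller.

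**Figure D2:**
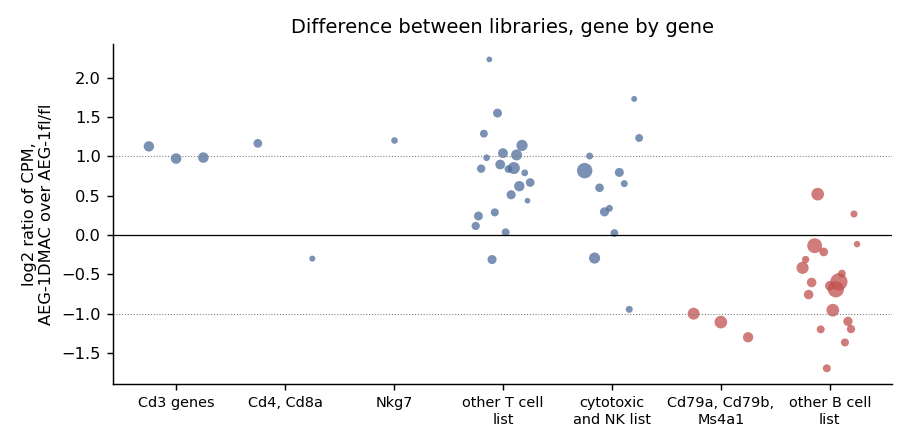
Log2 ratio of CPM, AEG-1DMAC over AEG-1fl/fl, for each gene with at least 20 UMIs over both libraries, with T cell and cytotoxic genes in blue, B cell genes in red, and larger points for more UMIs. Of the 21 other T cell genes 20 lie above 0, and of the 19 other B cell genes 17 lie below it. Dotted lines mark 2-fold.

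The genes listed for plasma cells, which secrete antibody and have lost most B cell surface genes, went both ways. Of 7 plasma cell genes with at least 20 UMIs, 4 were higher in AEG-1DMAC and 3 were lower. At 2-fold, 3 were higher and 1 was lower, where the shares of all genes were 2.96% and 2.82%. Jchain, which joins antibody units into polymers, had 83 and 35 UMIs (log2 1.39), Prdm1, the regulator of plasma cell fate, had 58 and 28 (log2 1.20), and Igha, the constant region of IgA, had 42 and 21 (log2 1.15). Mzb1, an endoplasmic reticulum protein of antibody-secreting cells, had 22 and 53 (log2 -1.12). The other genes with most UMIs, Xbp1 (9314 and 5707, log2 0.85) and Sdc1 (9570 and 13653, log2 -0.37), are made in quantity by hepatocytes. Igha was chosen for naming after its value was seen.

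Of 12 cytotoxic and NK genes with at least 20 UMIs, 10 were higher in AEG-1DMAC and 2 were lower. Their median log2 ratio was 0.63, beside 0.12 for all genes. Ccl5, a chemokine of activated T and NK cells, had 674 and 423 UMIs (log2 0.82). The granzymes Gzma, with 126 and 171 UMIs (log2 -0.29), and Gzmb, with 63 and 46 (log2 0.60), lay on either side of 0. The NK receptors Klrb1c, with 72 and 65 (log2 0.29), and Klrk1, with 80 and 51 (log2 0.80), were both above it. The interval of Klrb1c, -0.21 to 0.80, includes 0. At 2-fold, 3 were higher (Ctsw, Xcl1 and Tbx21, named after their values were seen) and 0 lower. The shares of all genes were 2.96% and 2.82%. Beside Gzma, the other lower gene was the perforin gene Prf1, also named after its value was seen. It had 15 and 32 UMIs (log2 -0.95, interval -1.94 to -0.02), just under the 2-fold line.

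Of the chemokines that draw lymphocytes, Cxcl9 had 1542 and 559 UMIs (log2 1.61) and Cxcl10 had 459 and 270 (log2 0.91). Both are induced by interferon and act on the receptor CXCR3 of activated T cells. Any part of these chemokines in the T set difference was not tested. Cxcl13, which draws B cells into follicles, had 39 and 48 UMIs (log2 -0.15). Cxcl12 (log2 0.03) and Cxcl16 (log2 -0.07) differed little between the libraries.

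Genes of other immune cells also differed. All 7 class II antigen presentation genes, which B cells share with dendritic cells and macrophages, were higher in AEG-1DMAC, by log2 0.74 to 1.30, and their sum was 825 CPM against 409 CPM. Of 8 dendritic cell genes, 7 were higher, with sums of 24.3 and 20.4 CPM and a median log2 ratio of 0.53, beside 0.12 for all genes. At 2-fold, 4 class II genes and 2 dendritic cell genes were higher and 0 of either list lower. The shares of all genes at that line were 2.96% and 2.82%. The 7 neutrophil genes summed to 6.01 and 19.6 CPM, and the 6 Kupffer cell genes to 566 and 548 CPM. Most neutrophil list UMIs in AEG-1fl/fl were of S100a9 (73 and 501) and S100a8 (40 and 264). Csf3r differed less (log2 -0.40), and Mmp9 went the other way (log2 0.40). Of the 5 neutrophil genes with at least 20 UMIs, 4 were lower in AEG-1DMAC and 1 was higher. Past 2-fold, 3 of them were lower and 0 higher, where the shares of all genes were 2.82% and 2.96%. Within the Kupffer cell list, the scavenger receptor gene Marco had 632 and 1816 UMIs (log2 -1.38). The part of these cells in the lymphocyte differences was not tested.

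Clumping was measured as the number of spots with a UMI divided by the number expected if the same UMIs were spread over the spots in proportion to depth. A value below 1 means that UMIs are gathered in fewer spots. Spot positions are not used here, so this says nothing of neighbouring spots. The T set gave 0.872 in AEG-1DMAC (357 spots against 409.5 expected) and 0.913 in AEG-1fl/fl (215 against 236). The B set gave 0.904 (272 against 301) and 0.915 (602 against 658). The median over all genes with at least 20 UMIs was 0.996 in AEG-1DMAC and 0.997 in AEG-1fl/fl, but these are single genes, whereas a set is a sum of 3.

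Gene by gene, the gathering was slight. A ratio of 0.9 or less was found for 1 of the 8 members with at least 20 UMIs in AEG-1DMAC (Cd3e, 0.886) and for 0 of 7 in AEG-1fl/fl. Over all genes tested, the shares were 1.71% in AEG-1DMAC and 0.914% in AEG-1fl/fl. The remaining members lay between 0.920 for Cd3d and 1.01 for Nkg7 in AEG-1DMAC, and between 0.966 for Ms4a1 and 0.981 for Cd4 in AEG-1fl/fl.

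The richest spots held few UMIs. In AEG-1DMAC, 7 spots had 4 or more T set UMIs and 3 had 4 or more B set UMIs, and in AEG-1fl/fl the numbers were 0 and 8. One AEG-1DMAC spot had 9 T set UMIs (2 of Cd3d, 4 of Cd3e and 3 of Cd3g) with 1 of Nkg7, 9 of the other T cell list, no B set UMI and no UMI of the bile duct and vessel wall markers. The next had 6 T set UMIs with 36 UMIs of those markers. The highest B set count in a spot was 5 in both libraries. No spot in either library held 4 or more UMIs of both sets.

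**Figure D3:**
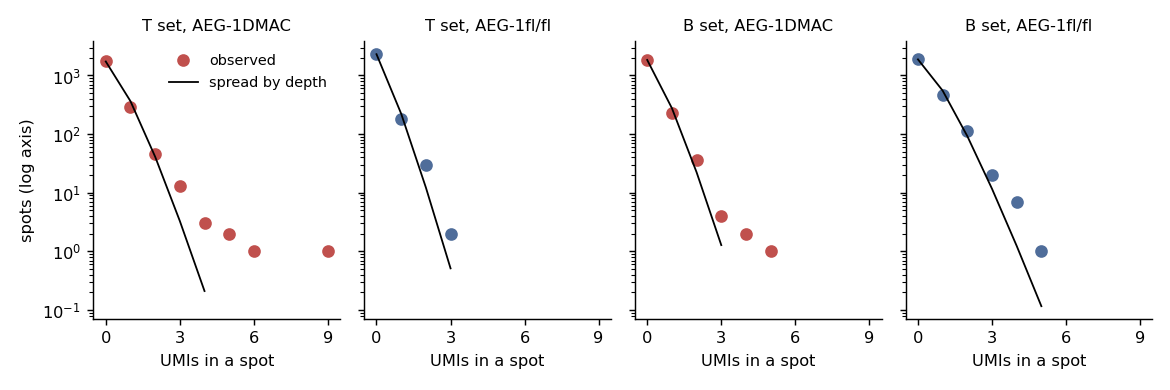
Number of spots, on a log axis, by the number of T set or B set UMIs in a spot, in each library. Points are observed spots (counts above 0) and lines are the numbers expected if the UMIs were spread by depth. The T set in AEG-1DMAC reaches 9 UMIs in a spot and in AEG-1fl/fl 3, and the B set reaches 5 in both.

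T and B set UMIs shared about as many spots as depth alone would give. Both were present in 53 AEG-1DMAC spots against 61.0 expected from depth and each set's total (ratio 0.869, interval 0.651 to 1.14), and in 57 AEG-1fl/fl spots against 67.9 expected (ratio 0.839, interval 0.635 to 1.09). Both intervals include 1. Within a lineage, pairs of genes shared a spot more often than depth would give. For the Cd3 genes the pairs found together numbered 55 against 32.3 expected in AEG-1DMAC (ratio 1.70, interval 1.28 to 2.22) and 23 against 8.91 in AEG-1fl/fl (ratio 2.58, interval 1.64 to 3.87). For the B cell genes they numbered 28 against 15.7 (ratio 1.78, interval 1.18 to 2.57) and 117 against 75.8 (ratio 1.54, interval 1.28 to 1.85). A spot with every gene of a set counts once for each pair, but these intervals treat the pairs as independent. Pair by pair, only Cd3d with Cd3g had an interval above 1 among the Cd3 genes (1.46 to 3.39 and 1.47 to 6.11). The intervals of Ms4a1 with Cd79a in both libraries, and with Cd79b in AEG-1DMAC, included 1. Cd79a and Cd79b, whose products form 1 signalling unit, were found together in 15 AEG-1DMAC spots against 8.23 expected and in 56 AEG-1fl/fl spots against 36.1 expected.

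Along the lobule, with the index of zone 3 less zone 1 markers, no zonation of either set was detectable at this depth. The T set was at 10.2, 10.1 and 9.86 CPM in the zone 1, middle and zone 3 parts of AEG-1DMAC, a log2 ratio of zone 3 over zone 1 of -0.05 (interval -0.39 to 0.28). In AEG-1fl/fl it was at 4.71, 5.06 and 5.07 CPM (log2 0.11, interval -0.36 to 0.57). The B set was at 5.77, 8.13 and 7.60 CPM in AEG-1DMAC (log2 0.40, interval -0.02 to 0.82) and at 16.2, 15.4 and 14.8 CPM in AEG-1fl/fl (log2 -0.12, interval -0.38 to 0.13). All 4 intervals include 0. With an index built from landmark genes in place of these markers, the B set in AEG-1DMAC gave log2 0.69 and the T set in AEG-1fl/fl 0.48. No interval is given for these values, so the result may depend on the markers chosen. Of the immunoglobulin genes, Ighm was higher in zone 3 in both libraries (log2 0.53, interval 0.19 to 0.86, and 0.50, interval 0.25 to 0.76), and Igkc in AEG-1DMAC (log2 0.42, interval 0.13 to 0.71) but not in AEG-1fl/fl (log2 -0.16, interval -0.38 to 0.05). Ighd was not zoned in either (log2 0.01, interval -0.59 to 0.61, and -0.22, interval -0.62 to 0.19). The other B cell list as a sum gave log2 0.12 (interval -0.02 to 0.26) in AEG-1DMAC and -0.05 (interval -0.16 to 0.06) in AEG-1fl/fl. The index itself separated the zones, since landmark genes not used in it had median log2 ratios of -1.22 and -0.59 (zone 1) and 2.74 and 2.41 (zone 3) in AEG-1DMAC and AEG-1fl/fl.

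At 1.5-fold between the outer parts, 1 of 8 members in AEG-1DMAC was higher in zone 1 (Cd4, log2 -0.71) and 0 in zone 3, where the shares of all genes were 8.44% and 5.43%. In AEG-1fl/fl, 1 of 7 was higher in zone 1 (Cd4, log2 -0.68) and 1 in zone 3 (Cd3e, log2 0.69), where the shares of all genes were 6.6% and 6.41%. The interval of each of these 3 values includes 0. With 5 parts in place of 3, the lowest value of the B set in AEG-1DMAC was 5.21 CPM in the part nearest zone 1 (interval 3.81 to 6.95), and the others lay between 7.27 and 7.92 CPM.

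**Figure D4:**
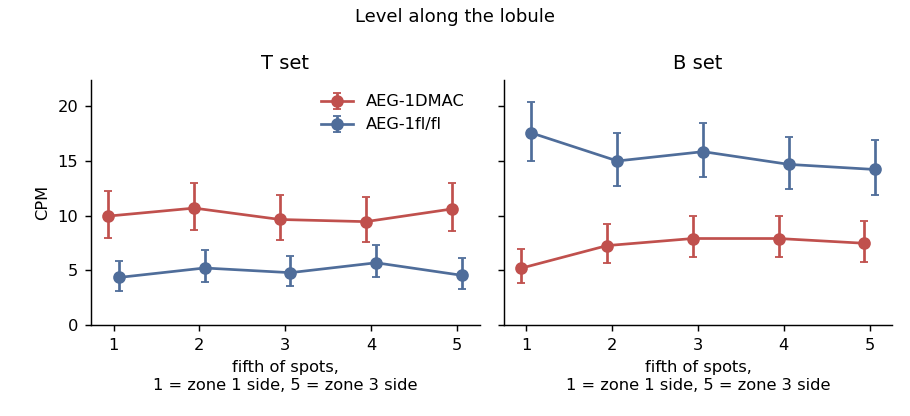
Level of the T set and of the B set in CPM in 5 equal parts of the spots, ordered from the zone 1 side (1) to the zone 3 side (5), with exact Poisson 95% intervals, for AEG-1DMAC (red) and AEG-1fl/fl (blue). Red lies above blue for the T set and blue above red for the B set in every part, and the B set in AEG-1DMAC is lowest, at 5.21 CPM, in part 1.

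The T set and the B set also differed in portal tracts. The 10% of spots highest in 5 bile duct markers (Krt7, Krt19, Epcam, Spp1, Sox9) and 5 vessel wall markers (Acta2, Myh11, Tagln, Mgp, Eln) were taken as portal tract spots, 214 in AEG-1DMAC and 254 in AEG-1fl/fl. Of these, 69.6% and 59.4% lay in the zone 1 part, and their median depths, 20200 and 17652.5 UMIs, were close to the 20999.5 and 18359.5 of the other spots. Vessel wall markers also mark other veins, so some of these spots need not be portal. In AEG-1DMAC these spots were also rich in haemoglobin RNA, with Hba-a2, Hbb-bs and Hbb-bt at log2 2.97, 2.96 and 2.82 over the other spots, against -0.30, -0.26 and -0.04 in AEG-1fl/fl. The part of blood in the values of the AEG-1DMAC portal tract spots was not tested.

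The T set was at 20.5 CPM in portal tract spots and 8.92 CPM elsewhere in AEG-1DMAC (log2 1.20, interval 0.86 to 1.53), and at 8.93 and 4.48 CPM in AEG-1fl/fl (log2 0.99, interval 0.50 to 1.46). The B set was at 7.71 and 7.11 CPM in AEG-1DMAC (log2 0.12, interval -0.43 to 0.63), and at 11.0 and 15.98 CPM in AEG-1fl/fl (log2 -0.54, interval -0.95 to -0.15). The T set was thus higher in these spots in both libraries, with intervals above 0. The B set interval included 0 in AEG-1DMAC and lay below 0 in AEG-1fl/fl. The longer lists differed less from each other. The other T cell genes summed to log2 1.14 (interval 0.96 to 1.31) in AEG-1DMAC and 0.93 (interval 0.70 to 1.14) in AEG-1fl/fl, and the other B cell genes to 0.40 (interval 0.23 to 0.56) and 0.17 (interval 0.03 to 0.31). Among the latter, Ebf1, which stromal cells also make, stood at log2 3.23 and 2.40, Fcrla at 1.95 and 0.84 and Ighm at 0.65 and 0.11, whereas Igkc stood at -0.10 and -0.12. Ebf1 and Fcrla were named here after their values were seen. The chemokines Cxcl9 and Cxcl10 were lower in the portal tract spots of AEG-1DMAC (log2 -1.43, interval -1.82 to -1.06, and -1.14, interval -1.83 to -0.52). In AEG-1fl/fl they stood at log2 0.41 (interval 0.04 to 0.76) and 0.40 (interval -0.15 to 0.91). Portal tract spots held 20.3% of T set UMIs in AEG-1DMAC and 18.9% in AEG-1fl/fl, against 10.7% and 7.46% of B set UMIs.

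Of the members with at least 20 UMIs in a library, Cd4 stood highest, with 27 of its 75 UMIs in the portal tract spots of AEG-1DMAC (log2 2.34, interval 1.60 to 3.05) and 8 of 37 in AEG-1fl/fl (log2 1.24, interval -0.10 to 2.40). In AEG-1fl/fl, Cd3d was close to it (log2 1.19, interval 0.30 to 2.01). Macrophages and dendritic cells can carry some CD4 as well. At 2-fold, 3 of 8 members were higher there in AEG-1DMAC (Cd3e, Cd3g and Cd4), where 10.5% of all genes were, and 2 of 7 in AEG-1fl/fl (Cd3d and Cd4), where 6.85% were. Cd79b was lower in the portal tract spots of AEG-1fl/fl, with 20 of 351 UMIs (log2 -0.95, interval -1.68 to -0.30). Between the libraries, the T set in portal tract spots differed by log2 1.20 (interval 0.68 to 1.74) and the B set by log2 -0.52 (interval -1.16 to 0.11). The B set difference in these spots thus has an interval that includes 0, whereas in the other spots it was -1.17 (interval -1.37 to -0.97).

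**Figure D5:**
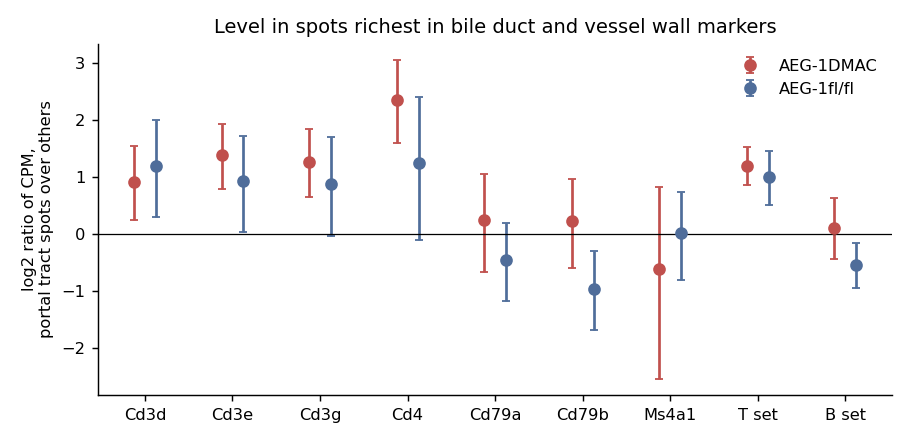
Log2 ratio of CPM, portal tract spots over the other spots, with exact conditional 95% intervals, for the members with at least 20 UMIs in both libraries and for the 2 sets. The T set lies at 1.20 in AEG-1DMAC (red) and 0.99 in AEG-1fl/fl (blue), and the B set at 0.12 and -0.54.

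Spots with a T set UMI were compared with all others for the genes of neighbouring cells. Vessel wall markers were higher in them by log2 1.66 in AEG-1DMAC and 1.27 in AEG-1fl/fl, bile duct markers by 1.11 and 0.76, class II genes by 0.60 and 0.52, dendritic cell genes by 0.73 and 0.58, and cytotoxic and NK genes by 1.05 and 0.72. Kupffer cell genes differed little (log2 -0.06 in both). Erythroid genes were higher in them in AEG-1DMAC (log2 0.99) but not in AEG-1fl/fl (log2 -0.11). The neutrophil list was higher in them in AEG-1fl/fl (log2 1.61) with 0.16 in AEG-1DMAC (interval -0.31 to 0.60). In AEG-1fl/fl most UMIs of that list were of S100a8 and S100a9. The part of blood content and of neutrophils in the T set values was not tested. In spots with a B set UMI the values were smaller for these lists, with vessel wall markers at log2 0.04 and -0.24, bile duct markers at -0.06 and 0.10, class II genes at 0.30 and 0.01, dendritic cell genes at 0.33 and -0.14, and cytotoxic and NK genes at 0.49 and 0.09. In AEG-1DMAC the intervals of the last 3 lists lay above 0.

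The genes most like each set were ranked by the correlation over spots, after adjustment for depth, taking the lower value of the 2 libraries among genes with at least 100 UMIs in each. For the T set they were Thy1, Cd74, Crip1, H2-Aa, Tmsb4x, Mgp, H2-Eb1, H2-Ab1, Myh11 and Tagln, with lower r between 0.11 and 0.15 over 2140 and 2540 spots. For the B set they were Igkc, Ighm, Ighd, Ighj4, Ighj1, Coil, Btla, Cntfr, Morc2a and Exoc3l2, with lower r between 0.055 and 0.13. These points share a library and a section, and correlations this weak in sparse counts are a description only. The first 5 genes of the B set list were immunoglobulin genes. The T set list held 4 class II genes (Cd74, H2-Aa, H2-Eb1 and H2-Ab1).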

How the data were processed

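Liver sections of 1 AEG-1DMAC and 1 AEG-1fl/fl mouse were profiled with the Visium kit for fixed, paraffin-embedded tissue. The deposited files hold raw UMI counts per gene and spot, which the authors made with Space Ranger 2.0.1 on the mm10 reference, and the lists of spot barcodes and genes that name the matrix, per the file headers. Seurat 4.3.0 stands in the submitters' processing notes, and no value normalised with it was used. Spots with over 50000 UMIs, under 100 genes or over 7000 genes were removed, as the study describes, which left out 9 and 3 of the 2149 and 2543 deposited spots. No doublet caller was run, since spots can hold several cells.

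UMIs were summed per library and scaled to CPM. Levels have exact Poisson intervals, shares of spots exact Clopper-Pearson intervals, and ratios exact conditional intervals, all at 95% and covering counting error only, so the total of a gene sets its precision. Depth was equalised by a hypergeometric formula at 10000 UMIs per spot, and expected spots came from a Poisson formula. Genes needed 20 UMIs over both libraries, or within the library for measures within it. With 1 library per genotype no test was possible. Python 3 scripts were used with numpy, scipy and pandas, and were tested on simulated data.

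All 9 members are named, with the 5 genes of most UMIs in each lymphocyte list, the 10 genes most like each set, and those said to be chosen after their values were seen. The members and lists were chosen with earlier results of these data known. Gene positions are from GENCODE M21 and promoters from RefSeq, both on GRCm38, the build that mm10 names.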

Additional observations from a re-analysis of the deposited data

How the results depend on the processing

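The alternatives were all deposited spots, other scalings, equal weight for each spot, leaving out the 10 richest spots of each library, other zone and portal definitions, and other depths and thresholds. No value whose interval lay on one side of 0 changed sign. For the sets and lists, 64 of 73 recomputed values stayed within the counting interval, or within 1.5 times for a count. The T set to B set ratio under other scalings is among the 64 but could not change, since a scaling cancels in a ratio. Using all deposited spots adds back only 9 and 3 spots. The T set difference ran from log2 0.88 to 1.05 and the B set difference from -1.25 to -1.08. The exceptions follow. The ratio of ratios was log2 1.27 with the longer T and B cell lists in place of the members. Thinning to 5000 UMIs gave T set shares of 4.74% and 2.39% and B set shares of 3.54% and 7.29% in AEG-1DMAC and AEG-1fl/fl, as fewer UMIs per spot must. The T set in AEG-1DMAC was log2 1.81 higher in the 5% of spots richest in portal markers, and the cause was not tested. At 1.5-fold, 14 other T cell genes were higher and 11 other B cell genes lower. With at least 100 UMIs over both libraries, 1 B cell gene (Pou2af1) stayed past 2-fold. The other B cell genes past it, Fcer2a, Pax5, Cr2 and Spib, had fewer than 100 UMIs. Without the 10 richest spots, Cd8a and Nkg7 moved to log2 -2.17 and 3.05. Each of their spots holds 1 UMI, so which 10 were left out is arbitrary. With 1 library per genotype, leaving out a replicate was not possible. No paired analysis was possible because each genotype has 1 library and the result comes from no test.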
